A study of Mus musculus with 2 samples.

Results

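Vascular leptomeningeal cells (VLMC) are the fibroblasts of the leptomeninges, the thin membranes of arachnoid and pia around the brain, and of the sheath that follows larger vessels into the tissue. In the single-nucleus RNA sequencing data of the hippocampus, 215 of 20594 nuclei were VLMC by the selection described here. They came from 1 library of PS19 mice (71 nuclei) and 1 library of PZKO mice (144 nuclei). Both groups carry the PS19 transgene, a mutant human tau driven by the mouse prion promoter, and PS19 mice have intact *Zbp1* while PZKO mice lack it. All animals were males aged 9 months, the tissue of 5 mice was pooled for each library, and mice without the tau transgene were not among these samples. Nuclei cannot be assigned to an animal, and genotype, pool, dissection and library cannot be told apart. Without replicate libraries the genotypes were not tested against each other, and every interval given is an exact 95% interval that covers counting error only.

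Leptomeningeal fibroblasts lay down collagens, proteoglycans and the laminin-rich basement membrane on which the brain surface rests. They make retinoic acid, carry organic anions, amino acids and dicarboxylates across their membrane, and release proteins such as prostaglandin D2 synthase into the cerebrospinal fluid. Pial, arachnoid and perivascular fibroblasts share this program, and their markers overlap. ZBP1 is a sensor of Z-form nucleic acids that engages RIPK kinases and is itself induced by interferon.

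The values are counts of unique molecular identifiers (UMIs), each standing for 1 captured transcript. The 71 VLMC nuclei of PS19 held 286799 UMIs, with a median of 3908 UMIs per nucleus and a range of 927 to 9523. The 144 VLMC nuclei of PZKO held 904011 UMIs, with a median of 6002.5 and a range of 1730 to 21023. The PZKO nuclei were thus the more deeply sequenced, as were all PZKO nuclei that passed the filter (a median of 9634 UMIs against 6208 in PS19). Levels are given as UMIs per 1000000 UMIs of the VLMC nuclei of a library (CPM), and a count of 3 UMIs corresponds to 10.5 CPM in PS19 and 3.32 CPM in PZKO. The libraries shared 47 barcodes, none of which belonged to a VLMC nucleus.

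The selection used 7 genes, namely *Lama1*, *Slc6a13*, *Aldh1a2*, *Col1a1*, *Col1a2*, *Dcn* and *Slc22a6*. A nucleus had to hold at least 10 UMIs of these genes per 10000 and at least 3 of the 7, and fewer than 10 per 10000 UMIs of each of an endothelial pair (*Flt1* and *Ptprb*), a mural pair (*Abcc9* and *Atp13a5*) and an oligodendrocyte pair (*St18* and *Prr5l*). The score alone kept 122 PS19 and 211 PZKO nuclei, the demand for 3 genes kept 89 and 172, and the exclusions removed 18 and 28. The lowest scores inside the threshold were 10.6, 10.9 and 11.2 in PS19 and 10.0, 10.4 and 11.7 in PZKO, and the highest outside were 9.82, 9.52 and 7.12 in PS19 and 9.52, 9.49 and 9.40 in PZKO. The median score was 27.6 in PS19 and 29.5 in PZKO. When all nuclei were clustered without the selection, 214 of the 215 fell into 1 cluster of 363 nuclei. The other 149 nuclei of that cluster included 86 with fewer than 3 of the genes and 66 that met an exclusion.

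The 7 selection genes had these levels by construction, and they are given as a description. *Lama1*, a chain of basement membrane laminin, stood at 1074 CPM in PS19 VLMC and 1063 CPM in PZKO VLMC. All other nuclei held 2.53 and 2.88 CPM of it. After thinning every nucleus to 2000 UMIs it was found in 73.0% and 72.5% of VLMC nuclei and in 0.397% and 0.547% of the others. *Slc6a13*, a transporter of GABA and taurine, had 593 and 584 CPM, and *Slc22a6*, an organic anion transporter, 171 and 157 CPM. *Aldh1a2*, which makes retinoic acid from retinal, had 401 CPM in PS19 and 513 CPM in PZKO. *Col1a1* and *Col1a2*, the chains of type I collagen, had 105 and 411 CPM in PS19 and 88.5 and 350 CPM in PZKO. *Dcn*, which encodes the proteoglycan decorin, was the one with the largest difference between libraries among the 7, with 443 CPM in PS19 and 280 CPM in PZKO (a log2 ratio of PZKO over PS19 of −0.66, −0.98 to −0.34).

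Genes that the selection did not use also marked these nuclei. Of 13 further VLMC markers, 12 were higher in VLMC than in other nuclei in both libraries, and their summed level was 8194 CPM in PS19 and 8053 CPM in PZKO against 80.9 and 87.0 CPM in other nuclei. The exception was *Slc47a1*, a transporter of organic cations, without a UMI in PS19 and with 15 UMIs in PZKO. *Cped1*, whose protein is little studied, had 1049 UMIs in 70 of 71 PS19 nuclei and 2713 UMIs in 141 of 144 PZKO nuclei. After thinning every nucleus to 2000 UMIs, *Cped1* was found in 96.8% of 63 PS19 VLMC nuclei and 95.8% of 142 PZKO VLMC nuclei, against 4.51% and 5.26% of 9313 and 9320 other nuclei.

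**Figure D1:**
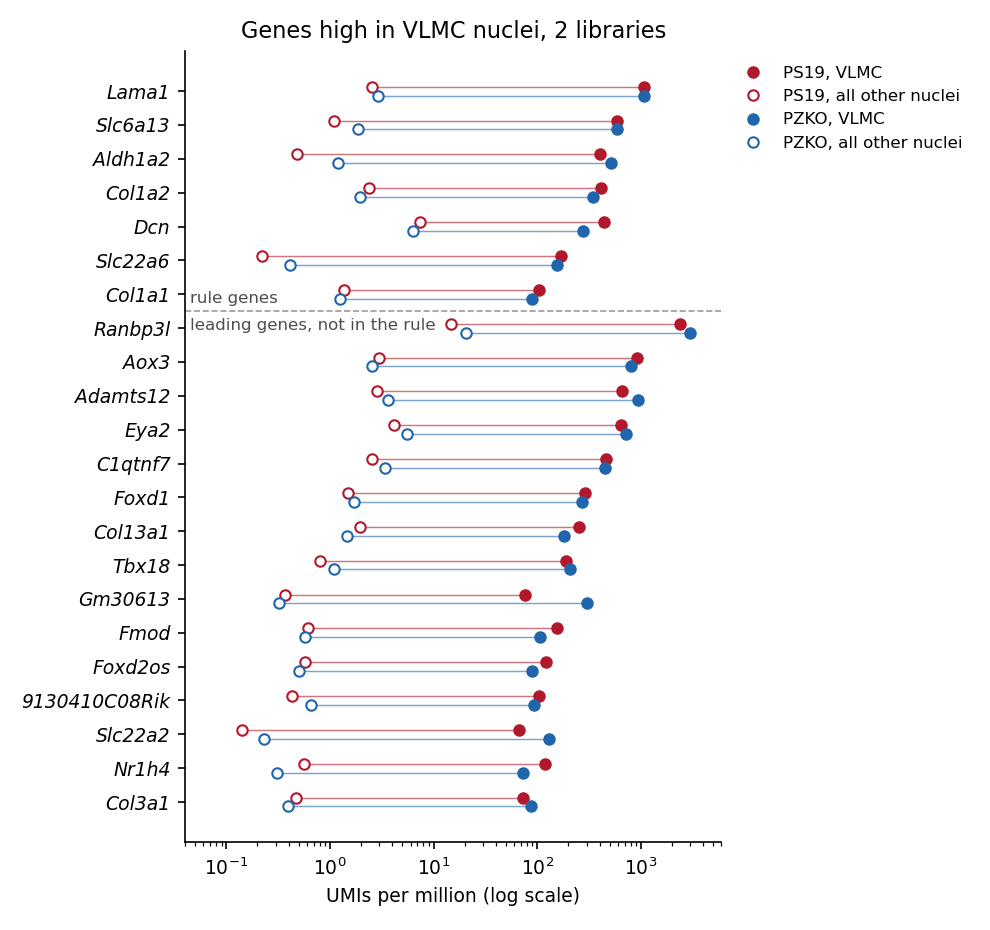
Level of VLMC genes in VLMC nuclei and in all other nuclei of the PS19 and PZKO libraries, in CPM on a log axis, with filled points for VLMC, open points for other nuclei, and the selection genes above the dashed line. The VLMC points sit well to the right of the points of other nuclei for the genes that the selection used (*Lama1* at 1074 and 1063 against 2.53 and 2.88) and for those it did not use.

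The leading genes were chosen by the lower of their folds over other nuclei in the 2 libraries, among genes with at least 100 UMIs and without the selection genes. *Aox3*, an aldehyde oxidase, had 924 CPM in PS19 and 811 CPM in PZKO, 311 and 320 times its level in other nuclei. *Ranbp3l*, a nuclear export factor for SMAD proteins, had 2406 and 2958 CPM, 164 and 144 times the level elsewhere. *Adamts12*, a secreted metalloprotease, had 656 and 942 CPM, 228 and 261 times. The folds of *Aox3*, *Ranbp3l* and *Adamts12* were similar in the libraries, and a high fold in both was part of the choice.

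Transcription factors of mesenchyme were among the leading genes. *Tbx18*, a T-box factor of mural and meningeal mesenchyme, had 188 CPM in PS19 and 208 CPM in PZKO. *Foxd1*, a forkhead factor of stromal precursors, had 289 and 270 CPM, and *Eya2*, a transcriptional coactivator, 645 and 719 CPM. The remaining leading genes included *Col3a1* (73.2 and 87.4 CPM), *Fmod* (157 and 106 CPM), *C1qtnf7* (460 and 451 CPM), and the organic cation transporter gene *Slc22a2* (66.2 and 129 CPM). *Col13a1*, a membrane collagen, had 251 and 184 CPM, with 31 of its 72 PS19 UMIs in 1 nucleus, and its log2 ratio was −0.45 with all nuclei and 0.28 without the nucleus of each library that held most of it. *Nr1h4*, a bile acid receptor gene, had 119 and 73.0 CPM, with 25 of its 34 PS19 UMIs in the 5 PS19 nuclei of a sub-cluster led by *Emcn*, and its log2 ratio was −0.70 with and 0.79 without that sub-cluster. *Gm30613*, a predicted noncoding gene at chr5:15538002-15605066 of mm10, had 76.7 CPM in 8 PS19 nuclei and 305 CPM in 23 PZKO nuclei. Of its 276 PZKO UMIs 160 lay in a sub-cluster led by *Hs6st3*, and its log2 ratio was 1.99 with and 1.09 without that sub-cluster. Of 2556 genes with at least 100 UMIs, 177 were over 10-fold higher in VLMC than in other nuclei in both libraries, and the 50 leading genes of each library had 41 in common (82.0% of each list).

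Marker lists of meningeal layers gave a mixed profile. The pial list summed to 1231 CPM in PS19 and 1518 CPM in PZKO, most of it *Lama2*, which encodes a laminin chain. The arachnoid list summed to 5948 and 3119 CPM, most of it *Ptgds*, the gene of prostaglandin D2 synthase. The arachnoid barrier list summed to 255 and 168 CPM and the dural list to 87.2 and 81.9 CPM, and *Dkk2* of the dural list had no UMI in either library. The name VLMC is used here for all 215 nuclei without a division into layers.

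VLMC made up 0.678% of the PS19 nuclei that passed the filter (0.530% to 0.855%) and 1.42% of the PZKO nuclei (1.20% to 1.67%). The PZKO share was 2.10 times the PS19 share (1.57 to 2.83), a log2 ratio of 1.07. After thinning to 2000 UMIs the rule kept 47 of 9376 PS19 nuclei (0.501%) and 99 of 9462 PZKO nuclei (1.05%), with a log2 ratio of 1.06. Over 20 other settings the log2 ratio ran from 0.81 to 1.28. Endothelial-like and mural-like nuclei, chosen by rules of the same form, had similar shares in the 2 libraries, with log2 ratios of 0.08 (−0.15 to 0.32) and 0.05 (−0.39 to 0.49). Oligodendrocyte-like nuclei had a log2 ratio of −0.10. Choroid-plexus-like nuclei were 2.58% of PS19 and 1.04% of PZKO nuclei, a log2 ratio of −1.32 (−1.65 to −0.98). Leptomeninges and choroid plexus both border the hippocampus, and how much of each was carried along in a dissection was not tested.

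**Figure D2:**
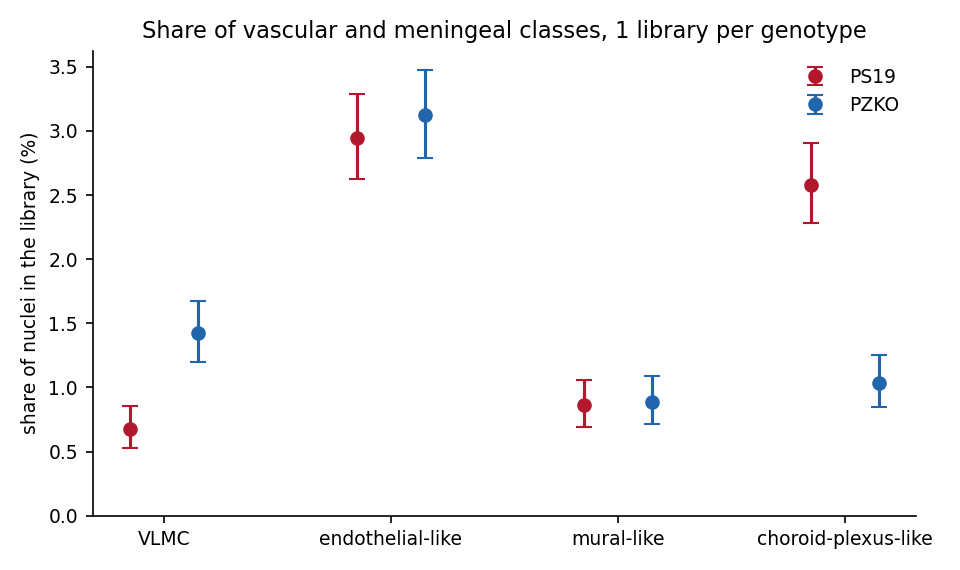
Share of nuclei in PS19 and PZKO for VLMC and for endothelial-like, mural-like and choroid-plexus-like nuclei, in percent, with 1 value for each library and exact binomial 95% intervals for counting error. The VLMC share is 0.678% in PS19 and 1.42% in PZKO, while the choroid-plexus-like share is the lower one in PZKO.

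Between the libraries most VLMC genes had similar levels. Of 4728 genes that reached 50 UMIs in VLMC of the libraries together, 220 were over 2-fold higher in PZKO (4.65%) and 122 were over 2-fold lower (2.58%), counted by size and without a test. The median log2 ratio was 0.03, against −0.04 in all other nuclei. The gene lists below used a minimum of 20 UMIs. At that minimum 633 of 8390 genes (7.54%) were over 2-fold higher in PZKO and 499 (5.95%) over 2-fold lower. The shares at 20 UMIs are the background for these lists.

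The 12 genes highest in PZKO relative to PS19 were all lower in VLMC than in other nuclei of both libraries, and most of their UMIs came from few nuclei. *Hs6st3*, a heparan sulfate sulfotransferase, had 1 UMI in PS19 and 219 UMIs in 8 PZKO nuclei. *Adarb2*, an RNA-binding relative of the RNA-editing enzymes, was counted 2 times in PS19 and 236 times in 10 PZKO nuclei. *Gpc5*, a glypican of astrocytes, had 1 and 248 UMIs, the latter in 15 nuclei. A sub-cluster of 6 PS19 and 34 PZKO nuclei, led by *Hs6st3*, which was itself found in 12.5% of these nuclei, held 98.2% of all *Hs6st3* UMIs, 97.5% of *Adarb2*, 96.8% of *Nxph1*, 89.8% of *Reln* and 89.3% of *Lrp1b*, but 35.3% of *Gpc5*. *Lhfpl3*, a marker of oligodendrocyte precursors, had 1 and 101 UMIs in PS19 and PZKO, of which 86.1% lay in 1 nucleus. *Samd12*, *Egfem1* and *Reln*, a secreted glycoprotein of interneurons, had no UMI in PS19 and 64, 64 and 59 UMIs in PZKO, log2 ratios of at least 2.76, 2.76 and 2.64 when 3 UMIs are allowed for PS19. The group also included *Csmd3* and *Lrrc4c*.

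That sub-cluster also held 7 of the 11 VLMC nuclei that ranked as putative doublets. The summed oligodendrocyte precursor markers over all VLMC were 59.3 CPM in PS19 and 248 CPM in PZKO, below the 785 and 843 CPM of other nuclei. Inhibitory neuron markers were 119 and 300 CPM, against 192 and 179 CPM in other nuclei. Without that sub-cluster 118 of 3638 genes (3.24%) were over 2-fold higher in PZKO, and *Adarb2* and *Csmd3* had log2 ratios of −0.31 and −0.084. The part of mixed nuclei in these values was not tested.

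Among the 12 genes lowest in PZKO relative to PS19, *Ttr* came first. *Ttr* encodes transthyretin, the thyroid hormone carrier made by choroid plexus epithelium. It had 237 UMIs in 66 of 71 PS19 VLMC nuclei and 67 UMIs in 45 of 144 PZKO nuclei, or 826 and 74.1 CPM (log2 ratio −3.48, −3.89 to −3.08). All other nuclei had a log2 ratio of −2.80, endothelial-like nuclei −2.77, mural-like −3.33, oligodendrocyte-like −3.32 and choroid-plexus-like nuclei −0.51. After thinning, 54.8% of other PS19 nuclei and 11.0% of other PZKO nuclei held a *Ttr* UMI. *Ttr* was lower in PZKO in each class compared, least in choroid-plexus-like nuclei, and the source of its UMIs in VLMC was not tested. The choroid plexus list as a whole summed to 969 and 197 CPM in VLMC and 483 and 89.5 CPM in other nuclei, with *Folr1* and *Slc4a5* at 0 UMIs in PS19 VLMC and *Otx2* at 0 in PZKO VLMC.

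A sub-cluster of 5 PS19 and 3 PZKO nuclei led by *Emcn* held many UMIs of further genes of this group. Its share was 80.9% for *Fam155a*, 70.3% for *Grip1*, 68.4% for *Dach1*, 61.0% for *Rgs7* and 43.9% for *Sorbs2*. Without it the log2 ratios of *Rgs7*, *Fam155a* and *Grip1* were 3.18, 1.64 and 1.28, with the opposite sign, and those of *Dach1* and *Sorbs2* were −0.81 and −0.89. The reversed ratios rested on few PS19 UMIs, as the sub-cluster held 47 of 48 for *Rgs7*, 176 of 182 for *Fam155a* and 95 of 102 for *Grip1*. Of their PZKO UMIs, 17 of 34, 51 of 184 and 43 of 117 lay in the sub-cluster led by *Hs6st3*. *Asic2*, an acid-sensing channel gene, had 91 UMIs in PS19, 83 of them (91.2%) in 1 nucleus. Its log2 ratio was −2.01 with all nuclei and 1.05 without the nucleus of each library that held most of it. The latter ratio rested on few PS19 UMIs, and 56 of the 71 PZKO UMIs of *Asic2* lay in the sub-cluster led by *Hs6st3*. *Ctsd*, the gene of a lysosomal protease, had 167 and 42.0 CPM (log2 ratio −1.99, other nuclei −1.07). *Spp1*, which encodes osteopontin, had 101 and 27.7 CPM (−1.87, other nuclei −1.94), and *Vim*, an intermediate filament gene, had 150 and 45.4 CPM (−1.73, other nuclei −1.30). *Nrgn*, a neuronal gene, had a ratio of −1.61 against −0.52 elsewhere.

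The secreted carriers of cerebrospinal fluid were lower in PZKO as a list. Of 8 genes with at least 20 UMIs, 7 lay below 0 and 3 were over 2-fold lower, with a median log2 ratio of −0.95. The same list had a median of −1.02 in all other nuclei. *Ptgds* reached 5809 CPM in PS19 VLMC, from 1666 UMIs, and 2970 CPM in PZKO VLMC, from 2685 UMIs (−0.97, −1.06 to −0.88). This gene lies at chr2:25466709-25470046 of mm10, and its ratio was −0.84 in choroid-plexus-like nuclei and −0.90 in oligodendrocyte-like nuclei but 0.53 in endothelial-like nuclei. *Apod*, a lipid-binding lipocalin, had 2127 and 1120 CPM (−0.93, other nuclei −1.28). *Apoe*, the apolipoprotein carried by glia, had 1060 and 483 CPM (−1.13, other nuclei −1.11). *Cst3*, a cysteine protease inhibitor, had 844 and 397 CPM, and *Trf*, the iron carrier transferrin, 296 and 119 CPM. *Cp*, the copper-binding ferroxidase ceruloplasmin, was the nearest to 0 of the lower members, with 1010 and 762 CPM (−0.40, −0.60 to −0.20). *Rbp4*, the retinol carrier, was above 0 on 4 and 19 UMIs (0.59, with an interval that includes 0). As the list was lower in other nuclei by a similar amount, no difference particular to VLMC can be read from it.

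**Figure D3:**
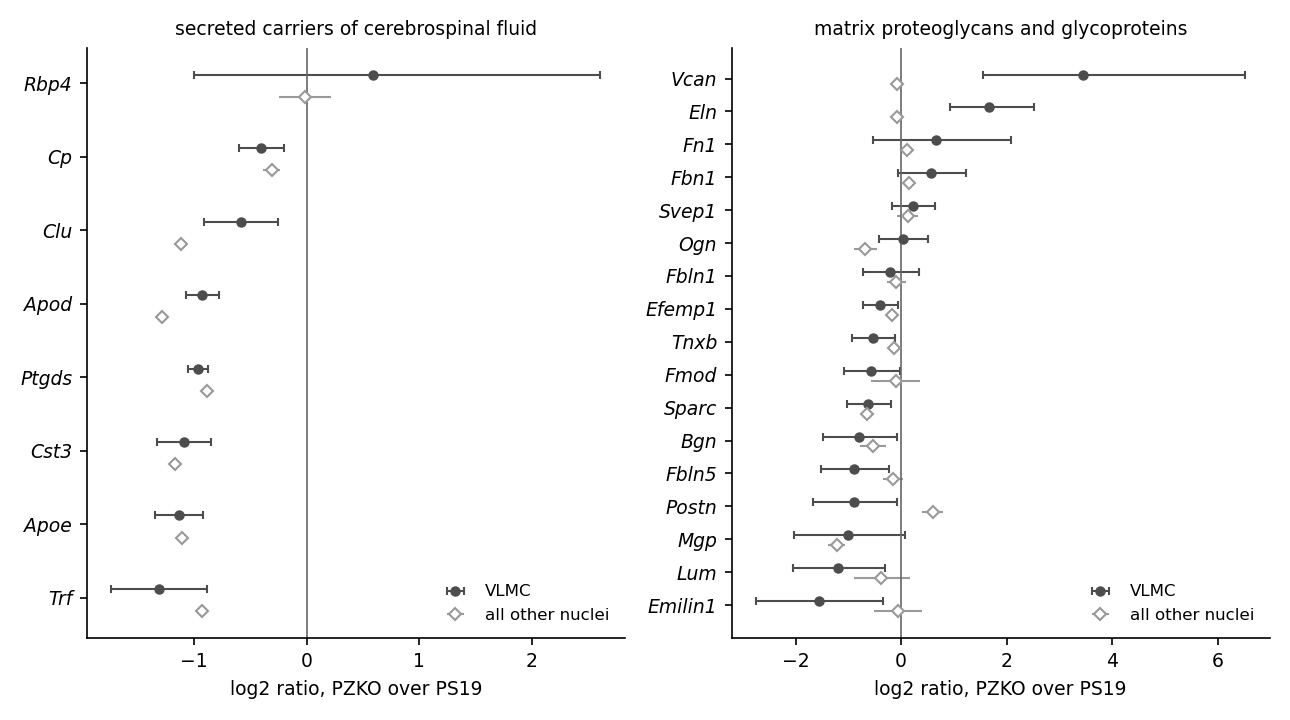
Log2 ratio of PZKO over PS19 for secreted carriers (left) and matrix proteoglycans and glycoproteins (right), with VLMC as filled points, all other nuclei as open diamonds and exact 95% counting intervals as bars. *Ptgds* (−0.97 against −0.88) and *Apoe* (−1.13 against −1.11) lie close to their value in other nuclei, while *Eln* (1.67 against −0.09) lies apart from it.

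Interstitial collagens, chains of the matrix outside the basement membrane, had a median log2 ratio of −0.26 over 11 genes, with 8 below 0 and 1 over 2-fold lower. That member was *Col12a1*, a fibril-associated collagen, with 53 UMIs in 18 of 71 PS19 nuclei and 65 UMIs in 30 of 144 PZKO nuclei, or 185 and 71.9 CPM (−1.36, −1.91 to −0.81). Its ratio in other nuclei was 0.19. *Col5a1*, a chain that sets fibril diameter, was higher in PZKO with 62.8 and 111 CPM (0.82, 0.08 to 1.63), whereas its partner *Col5a2* had 227 and 156 CPM (−0.54, −0.97 to −0.09). The 10 collagen processing enzymes had a median of 0.17 with 6 above 0 and none over 2-fold higher. *Serpinh1*, a collagen chaperone, was over 2-fold lower on 11 and 12 UMIs (−1.53, −2.84 to −0.21).

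Matrix proteoglycans and glycoproteins had a median of −0.53 over 17 genes, with 11 below 0, against −0.10 in other nuclei. Beside 5.95% and 7.54% of all genes with at least 20 UMIs, 3 were over 2-fold lower and 2 over 2-fold higher in PZKO. The lower ones were *Emilin1*, a glycoprotein of elastic fibers, with 45.3 and 15.5 CPM (−1.55, −2.75 to −0.34), *Lum*, which encodes the proteoglycan lumican, with 73.2 and 32.1 CPM (−1.19, −2.05 to −0.31), and *Mgp*, an inhibitor of calcification, on 14 and 22 UMIs with an interval that includes 0. *Fmod*, *Fbln5* and *Sparc* had ratios of −0.56, −0.89 and −0.62. *Eln*, which encodes the elastic fiber protein elastin, was higher in PZKO. It had 16 UMIs in 10 PS19 nuclei and 161 UMIs in 46 PZKO nuclei, or 55.8 and 178 CPM (1.67, 0.93 to 2.52). One PZKO nucleus held 37.9% of these UMIs, and without the nucleus of each library with most of it the ratio was 1.40. *Vcan*, a large proteoglycan also made by oligodendrocyte precursors, was counted 2 times in PS19 and 69 times in 11 PZKO nuclei. The sub-cluster led by *Hs6st3* held 87.3% of these UMIs, and the log2 ratio was 3.45 with and 0.50 without it.

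Basement membrane genes had levels that were close between the libraries, with a median of 0.21 over 15 genes and none past 2-fold. *Lama2* had 1084 CPM in PS19 and 1400 CPM in PZKO (0.37, 0.19 to 0.55). *Col4a6*, a collagen IV chain of specialised membranes, had 614 and 708 CPM (0.21), and *Nid1*, a linker between laminin and collagen IV, had 143 CPM in both. *Col15a1* was the lowest member with 101 and 58.6 CPM (−0.79, −1.47 to −0.08). Of 5 matrix proteases and inhibitors 4 lay below 0, with a median of −0.12, and 1 was past 2-fold in each direction. *Timp2*, an inhibitor of matrix metalloproteases, was lower in PZKO with 105 and 47.6 CPM (−1.14, −1.84 to −0.41). *Adamts9*, a matrix protease, was higher with 90.7 and 217 CPM (1.26, 0.66 to 1.91). The sub-cluster led by *Hs6st3* held 46.4% of its UMIs, and its ratio was 0.83 without that sub-cluster and −0.027 over all nuclei of the fibroblast cluster. *Timp3*, a matrix-bound inhibitor, had 798 and 736 CPM.

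**Figure D4:**
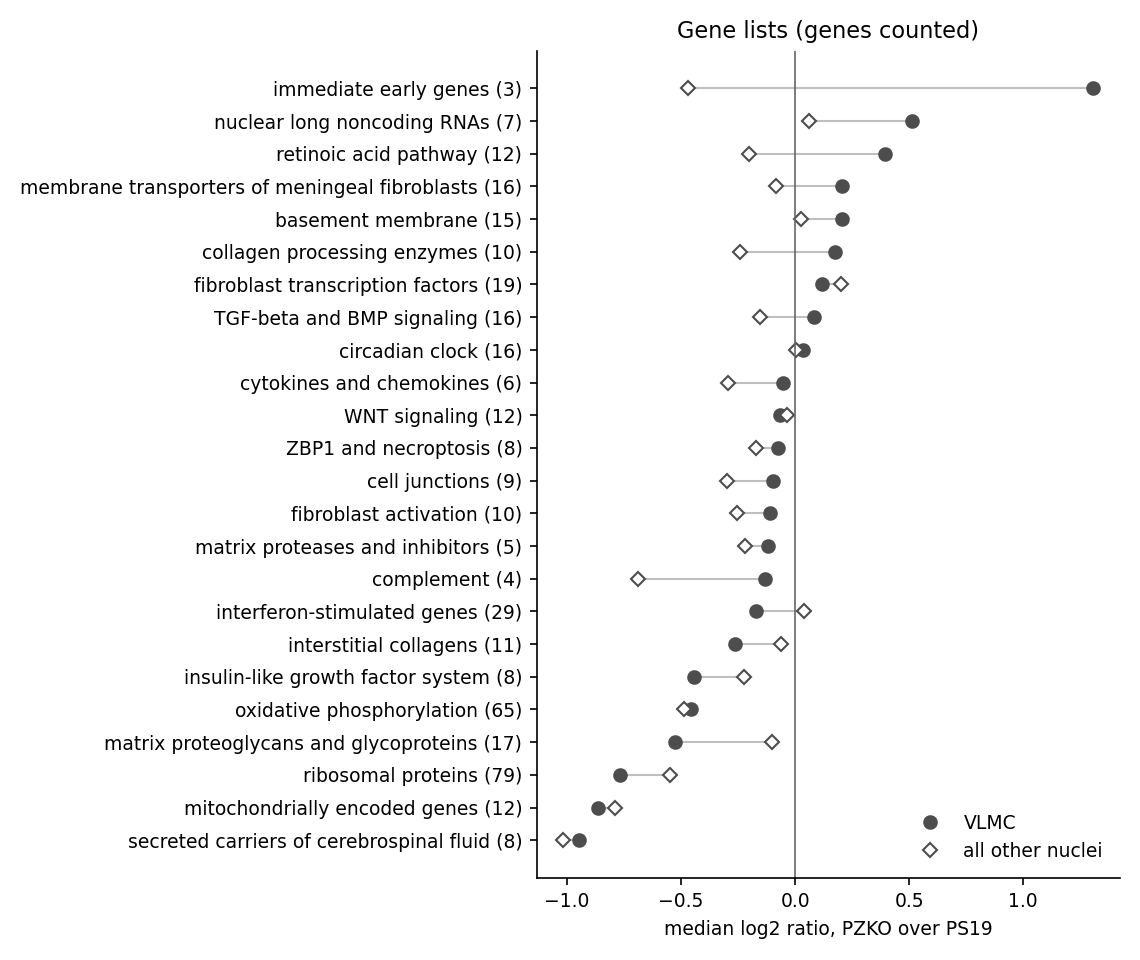
Median log2 ratio of PZKO over PS19 for each gene list in VLMC (filled points) and in all other nuclei (open diamonds), with the number of genes counted in each list. The mitochondrially encoded genes (−0.86 and −0.79), the secreted carriers (−0.95 and −1.02) and the ribosomal proteins (−0.77 and −0.55) lie to the left in both, while most lists lie near 0.

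The retinoic acid pathway beyond *Aldh1a2* had 8 of 12 genes above 0 and a median of 0.39, against −0.20 in other nuclei. *Aldh1a1*, another retinal dehydrogenase, had 338 and 364 CPM (0.11, −0.23 to 0.45), and the retinoic acid receptor gene *Rarb* had 366 and 298 CPM (−0.30). *Rdh10*, *Dhrs3* and *Cyp26b1*, which make retinal, reduce it and degrade retinoic acid, had ratios of 0.51, 0.73 and 0.58, each with an interval that includes 0. Membrane transporters had a median of 0.21, with 10 of 16 genes above 0. *Slc7a11*, the cystine and glutamate exchanger, had 3117 and 3612 CPM (0.21, 0.11 to 0.32), and *Slc6a20a*, a proline transporter, had 1747 and 2157 CPM (0.30, 0.16 to 0.45). *Slc13a3*, a dicarboxylate transporter, had 457 and 569 CPM (0.32), and *Slc38a2*, a glutamine transporter, had 778 and 533 CPM (−0.54, −0.78 to −0.31). *Slc4a10*, a bicarbonate transporter, had 6 and 101 UMIs, 32.7% of the latter in 1 nucleus. The sub-cluster led by *Hs6st3* held 46 of the 101 UMIs. The log2 ratio of *Slc4a10* was 2.42 in VLMC and −0.25 over all nuclei of the fibroblast cluster.

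Among 19 fibroblast transcription factors, 10 lay above 0 and 9 below, with a median of 0.12. *Foxp1*, a forkhead factor, had 1416 and 1534 CPM, and *Bnc2*, a zinc finger factor, had 317 and 411 CPM. *Ebf2* was lower in PZKO, with 32 UMIs in 11 PS19 nuclei and 49 UMIs in 16 PZKO nuclei (−1.04, −1.71 to −0.35), while its ratio in other nuclei was 1.18. Genes of TGF-beta and BMP signaling had 12 of 16 members above 0, a median of 0.08 and none past 2-fold. *Bmp6*, a BMP ligand, had 1325 CPM in PS19 and 1806 CPM in PZKO (0.45, 0.29 to 0.61), against a ratio of −0.54 in other nuclei. By class the *Bmp6* ratio was 0.26 (0.13 to 0.40) in choroid-plexus-like and 0.36 (−0.06 to 0.80) in oligodendrocyte-like nuclei. It was −0.80 in endothelial-like nuclei and −0.50 in mural-like nuclei, the latter on 2 UMIs in each library. *Bmp7* had 181 and 243 CPM (0.42) and *Tgfbr3*, the coreceptor betaglycan, 666 and 697 CPM (0.07). The WNT list had 5 of 12 genes above 0 and a median of −0.06, and its ligand *Wnt5a* had 171 and 137 CPM.

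The insulin-like growth factor system had a median of −0.44 over 8 genes, with 2 over 2-fold lower (*Igfbp5* and *Igfbp7*), but it was 0.15 at a selection score of 20 and 0.16 under a stricter filter on nuclei. The sub-cluster led by *Emcn* held 37 UMIs of *Igfbp7*, against 27 in all other VLMC nuclei. It also held 12 of the 44 PS19 UMIs of *Igfbp5* and 1 of the 49 PZKO UMIs. *Igf2*, a growth factor of the meninges, had 223 and 147 CPM (−0.60, −1.04 to −0.15), and its ratio in other nuclei was −1.01. *Igfbp5* had 153 and 54.2 CPM (−1.50, −2.12 to −0.88; other nuclei −0.52). *Cxcl12*, a chemokine that meningeal fibroblasts release, had 160 and 96.2 CPM (−0.74, −1.27 to −0.19), and the 6 cytokines and chemokines counted had a median of −0.05. Of the complement genes 4 could be counted, with a median of −0.13 against −0.69 in other nuclei. In the fibroblast activation list 4 of 10 genes lay above 0, with a median of −0.11, and *Spp1* and *Vim* were over 2-fold lower. *Tagln*, an actin-binding gene, had 6 and 50 UMIs, 52.0% of the latter in 1 nucleus. *Ccn1*, a matricellular gene, had 1 UMI in PS19 and 36 UMIs in 7 PZKO nuclei, 61.1% of them in 1 nucleus. Cell junction genes had a median of −0.10 over 9 genes, and *Cldn11*, a claudin of the arachnoid barrier and of myelin, had 94.1 and 31.0 CPM (−1.60, other nuclei −0.81).

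*Zbp1*, the gene that PZKO mice lack, had 0 UMIs in the PS19 VLMC nuclei and 3 UMIs in the PZKO VLMC nuclei, too few for a ratio. All other nuclei had 109 and 47 UMIs in PS19 and PZKO, or 0.966 and 0.279 CPM (−1.79, −2.32 to −1.29). The sources used here do not give which exons the deletion removes, and a 3′ count outside it does not check the label. Of its partners, *Ripk3* had no UMI in VLMC of either library, and *Mlkl*, the executor of necroptosis, had 1 and 4 UMIs. *Ripk1* had 31.4 and 25.4 CPM and *Casp8*, a protease that restrains necroptosis, 31.4 and 27.7 CPM. The 8 genes of this list with at least 20 UMIs split 4 above and 4 below 0, with a median of −0.08.

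The direction of the interferon-stimulated genes in VLMC rested on 1 PS19 nucleus. Of 29 genes counted, 19 were lower in PZKO, 8 of them over 2-fold, and 10 were higher, 3 of them over 2-fold, with a median log2 ratio of −0.17. Over all genes with at least 20 UMIs, 5.95% were over 2-fold lower and 7.54% over 2-fold higher. *Cxcl10*, an interferon-induced chemokine gene, had 19 UMIs in 4 PS19 nuclei and 2 UMIs in PZKO. A single PS19 nucleus with 4545 UMIs held 195 of the 569 PS19 UMIs of the list (34.3%), spread over 33 list genes. It had 429 list UMIs per 10000, while the next PS19 nucleus had 73.8 and the highest PZKO nucleus 79.9. The median was 10.2 per 10000 in PS19 and 11.8 in PZKO. Interferon list UMIs were found in 64 of 71 PS19 and 140 of 144 PZKO nuclei.

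That nucleus held 19 of the 21 PS19 UMIs of *Rsad2* (the antiviral enzyme viperin), 16 of the 19 UMIs of *Cxcl10*, 16 of the 45 UMIs of *Rnf213* and 13 of the 28 UMIs of *Samhd1*. With all nuclei *Rsad2* had a log2 ratio of −2.46 (−3.62 to −1.37), and without this nucleus one of 0.91 (−1.26 to 4.11). The list as a whole then had 19 of 27 genes above 0 and a median of 0.37, and the ratio of its summed UMIs went from −0.36 (−0.50 to −0.22) to 0.22 (0.06 to 0.39). All PZKO nuclei stayed in, also those of the sub-cluster led by *Hs6st3*, so the summed ratio could only rise. With the nucleus of each library that held most list UMIs left out, the list summed to 1325 CPM in PS19 and 1484 CPM in PZKO. No direction in VLMC is read from these values. The PS19 nucleus carried 5 of the 7 selection genes with a score of 35.2, 37 UMIs of 6 of the 13 further VLMC markers and 82 UMIs of *Ptgds*. It had no UMI of the 5 microglial, the 5 macrophage, the endothelial or the mural markers, and it did not rank as a putative doublet. As 1 nucleus of 1 library, it says nothing of how often such nuclei occur in either genotype.

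**Figure D5:**
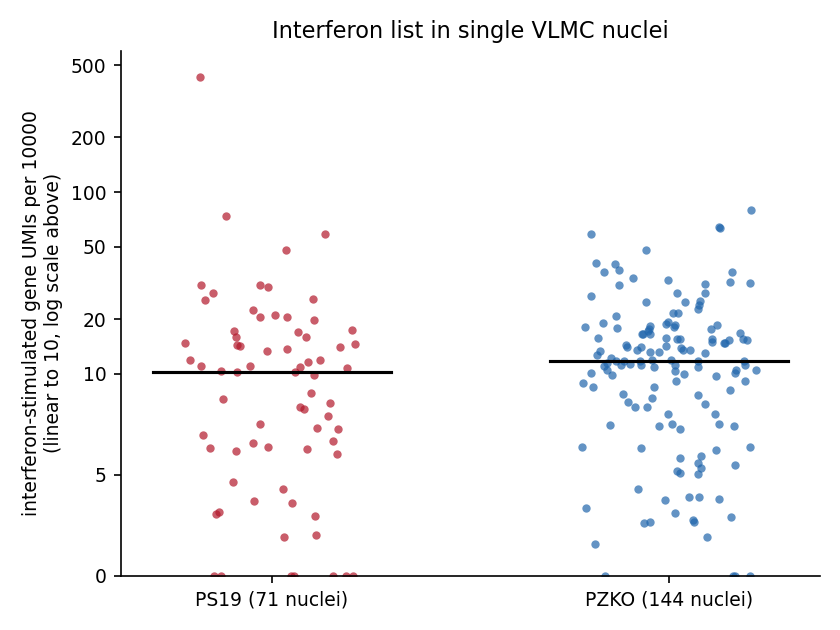
UMIs of interferon-stimulated genes per 10000 UMIs in each VLMC nucleus of PS19 and PZKO, with 1 point for each nucleus, a line at the median, and an axis that is linear up to 10 and logarithmic above. A single PS19 nucleus stands at 429, and all other nuclei of both libraries lie at or below 79.9.

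The promoters of 3 genes counted in that nucleus are shown because they hold the core of the interferon-stimulated response element, which is GAAA, any pair of bases and GAAA again, or on the other strand TTTC, any pair and TTTC, the letters read by the transcription factor complexes that interferon activates. Each is the 250 bases before the start of the gene in RefSeq on GRCm38.p6, read 5′ to 3′ on the strand of the gene, with matches in capitals. The stretch of *Rsad2* is chr12:26456453-26456702 (minus strand), that of *Cxcl10* chr5:92348890-92349139 (minus strand), and that of *Ifit1*, an antiviral RNA-binding protein, chr19:34640639-34640888 (plus strand).
Rsad2: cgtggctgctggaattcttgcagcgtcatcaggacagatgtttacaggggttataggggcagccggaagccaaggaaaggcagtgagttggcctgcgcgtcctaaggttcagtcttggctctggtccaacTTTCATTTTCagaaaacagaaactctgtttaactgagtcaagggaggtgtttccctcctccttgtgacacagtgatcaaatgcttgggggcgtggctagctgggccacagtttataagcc
Cxcl10: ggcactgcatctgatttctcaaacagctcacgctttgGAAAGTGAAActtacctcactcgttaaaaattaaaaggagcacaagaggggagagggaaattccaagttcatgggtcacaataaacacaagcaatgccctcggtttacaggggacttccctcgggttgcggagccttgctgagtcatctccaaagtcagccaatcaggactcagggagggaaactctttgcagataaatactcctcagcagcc
Ifit1: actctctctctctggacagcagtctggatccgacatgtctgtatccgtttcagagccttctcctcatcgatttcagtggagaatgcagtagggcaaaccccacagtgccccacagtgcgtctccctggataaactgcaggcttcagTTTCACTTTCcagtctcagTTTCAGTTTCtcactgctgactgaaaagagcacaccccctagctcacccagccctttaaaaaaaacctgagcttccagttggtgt
The match begins 120 bases before the start in *Rsad2* and 213 bases before it in *Cxcl10*, and the matches in *Ifit1* begin 104 and 85 bases before it. Among list genes in that nucleus with a promoter in the table, 13 of 27 held a match (48.1%), as did 13 of 29 of the whole list (44.8%). Of all 27025 promoters in the table, 821 did (3.04%), and of the leading VLMC genes 1 of 12. A match describes the letters and does not show that a factor bound there.

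Lists that follow RNA quality and the cytoplasmic share of the RNA were lower in PZKO in VLMC and elsewhere. Of 79 ribosomal protein genes, 75 lay below 0, with a median of −0.77 in VLMC and −0.55 in other nuclei. All 12 mitochondrially encoded genes counted were below 0, with medians of −0.86 and −0.79, and *mt-Co1*, a subunit of cytochrome oxidase, had 1628 and 941 CPM. The median share of mitochondrial UMIs per VLMC nucleus was 0.615% in PS19 and 0.388% in PZKO. Oxidative phosphorylation genes had 56 of 65 below 0 and a median of −0.46 (other nuclei −0.49). *Malat1*, a noncoding RNA that stays in the nucleus, had a ratio of −0.27, against −0.29 elsewhere. The part of these differences in the lower levels of secreted carriers and matrix genes was not tested. Clock genes had a median of 0.03 over 16 genes, and *Arntl* and *Npas2* were over 2-fold higher in PZKO on 2 and 1 UMIs in PS19. Of 7 nuclear noncoding RNAs 4 lay above 0, and their median was 0.51, the highest value over the settings tried, with −0.18 without the sub-cluster led by *Hs6st3*. The immediate early list rested on 3 genes. *Jun* and *Jund* had 7 and 5 UMIs in PS19 and 32 and 39 UMIs in PZKO. *Nr4a2* had 2 UMIs in 1 PS19 nucleus and 19 UMIs in PZKO, 15 of them in 1 nucleus, and its log2 ratio was −1.26 without the nucleus of each library that held most of it.

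VLMC nuclei fell into 5 sub-clusters, which are left unnamed and called by their leading genes. The largest (38 PS19 and 54 PZKO nuclei) was led by *Chrm3* and *Gm42397*, with *Gm42397* found in 29.3% of its nuclei and *Chrm3* in fewer, and it included the interferon-rich nucleus. The next (14 and 34 nuclei) was led by *Nox4*, *Hes1* and *Adamts6*, with *Eln* and *Col8a1* among its leading genes. A sub-cluster of 8 and 19 nuclei was led by *Rspo2*, an enhancer of WNT signaling, and had 10838 CPM of the arachnoid list and 1502 CPM of *Bnc2*. The sub-cluster led by *Hs6st3* and *Tox3* (6 and 34 nuclei) had 1221 CPM of oligodendrocyte markers, 590 CPM of oligodendrocyte precursor markers and 358 CPM of microglial markers. It had 354 CPM of inhibitory neuron markers and 2036 CPM of the selection genes, against 221 and 3440 CPM in the other VLMC nuclei. Its leading genes included the microglial marker *Inpp5d*, found in 17.5% of its nuclei, which goes against the VLMC name. The sub-cluster led by *Emcn*, *Alpl* and *Itga8* (5 and 3 nuclei) had no UMI of *Aldh1a2*, *Slc6a13*, *Slc22a6*, *Ranbp3l*, *Bnc2* or *Lum*, which goes against the VLMC name. It had 874 CPM of *Lama1* and 677 CPM of the arachnoid barrier list. Its dural and arachnoid lists stood at 328 and 306 CPM, against 73.4 and 3940 CPM in the other VLMC nuclei. The 13 further VLMC markers summed to 10184 CPM against 8003 CPM, most of it *Cped1* (9484 CPM). At a resolution of 1 there were 9 sub-clusters. The smallest of these (3 and 3 nuclei) was led by *Arhgap15*, *Ly86* and *Fyb*, genes known from microglia and other immune cells, and 3 of its 6 nuclei ranked as putative doublets. These leading genes go against the VLMC name.

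Markers of other cell types were counted in VLMC of both libraries, and their part in the differences above was not tested. Over 8 genes of neurons, oligodendrocytes, microglia and astrocytes (*Slc17a7*, *Gad1*, *Gad2*, *Mog*, *Mobp*, *Csf1r*, *P2ry12* and *Aqp4*), the summed level in VLMC was 34.1% of that in other nuclei in PS19 (62 UMIs) and 56.8% in PZKO (277 UMIs). This share differed between the libraries and holds for these 8 genes only. Relative to other nuclei, excitatory neuron and microglial markers were lower in PZKO than in PS19 VLMC. Oligodendrocyte precursor and inhibitory neuron markers were higher. RNA of other cell types can bear on every VLMC level and ratio given, and no single share describes it. With the profile of other nuclei subtracted at the share of the 8 genes, 283 of 4456 genes (6.35%) were over 2-fold higher and 575 (12.9%) over 2-fold lower in PZKO. Astrocyte markers were the highest, with 2148 CPM in PS19 and 2639 CPM in PZKO against 1950 and 2093 CPM in other nuclei, and most of that was *Slc1a3*. Excitatory neuron markers summed to 411 and 288 CPM and oligodendrocyte markers to 718 and 783 CPM, both below other nuclei (1447 and 1444 CPM, and 2074 and 1548 CPM). Microglial markers summed to 216 and 138 CPM, macrophage markers to 69.7 and 22.1 CPM, endothelial markers to 66.2 and 164 CPM, and mural markers to 101 and 50.9 CPM. *Mrc1*, the macrophage mannose receptor, had 15 UMIs in PS19 and 2 in PZKO, while *Cd163*, *Lyve1* and *Pf4* were at 0 in PS19. *Adgrl4* of the endothelial list was at 0 in both libraries. Ependymal markers were near 0 (3.49 and 5.53 CPM).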

How the data were processed

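Nuclei from hippocampi of PS19 and PZKO mice were sequenced with 10x Genomics 3′ chemistry, in 1 pooled library per genotype. The authors deposited UMI counts per gene and nucleus as whole numbers without normalization. The submitters' processing notes name Cell Ranger 7.0.1 and mm10, and the matrix headers name Cell Ranger 8.0.1. SoupX, the filter and DoubletFinder of the methods are not part of the deposited counts. The methods state both that animals were processed separately and that 5 males were pooled, and the counts carry no animal label.

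Nuclei with fewer than 600 UMIs, fewer than 300 genes or over 5% mitochondrial UMIs were left out, and the rest kept (10466 of 11469 in PS19 with 113139743 UMIs, and 10128 of 10920 in PZKO with 169430489 UMIs). Putative doublets, the nuclei with the highest Scrublet scores at 0.8% per 1000 nuclei, stayed in. UMIs were summed over VLMC nuclei and scaled to CPM. Log2 ratios have exact conditional Clopper-Pearson 95% intervals, shares have exact binomial ones, and a count of 0 was set to 3 counts over the library. Genes needed 50 UMIs over both libraries, list genes 20. No test was made, because there is 1 library per genotype. Sub-clusters were made with leidenalg 0.10.2 in scanpy 1.11.5 (1000 genes, 15 components, 15 neighbours, resolution 0.5). Gene positions are from GENCODE M21 (32235 of 32285 genes) and promoters from RefSeq on GRCm38.p6. edgeR 4.0.16 and DESeq2 1.42.0 gave alternative scaling factors only.

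Named genes were the 7 selection genes and *Zbp1*, 15 leading genes, the 12 highest and 12 lowest ratios ranked by the interval end nearest to 0, and in each list the most counted and the extreme members, with further members where a list is described. The members and lists were chosen with earlier results of these data known. The interferon element search, the account of single nuclei and the genes of the closing section were chosen after the values were seen. The values of some single genes are not reported here, while counts and medians of lists include them. The interval was tested on simulated counts.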

Additional observations from a re-analysis of the deposited data

How the results depend on the processing

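Over 17 alternatives the median log2 ratios of interstitial collagens (−0.53 to −0.09), matrix proteoglycans (−0.56 to −0.25), transporters (0.04 to 0.50), secreted carriers (−1.15 to −0.66), ribosomal proteins (−0.999 to −0.591) and mitochondrially encoded genes (−1.14 to −0.53) kept their sign, and the other lists described had the opposite sign under at least 1 alternative, except oxidative phosphorylation (−0.67 to −0.39) and immediate early genes (0.37 to 1.69, over 16 alternatives). TMM and DESeq2 scaling moved every ratio by −0.00 and −0.03. The cause of each difference below was not tested. Of the genes tested, 4.65% were over 2-fold higher and 2.58% over 2-fold lower in PZKO. With a minimum of 20 UMIs 633 (7.54%) and 499 (5.95%) of 8390 were, and with 100 UMIs 90 (3.51%) and 34 (1.33%) of 2563. A score of 20 gave 136 higher genes of 3391 (4.01%), removal of the *Hs6st3* sub-cluster 118 of 3638 (3.24%), and removal of both the *Hs6st3* and the *Emcn* sub-clusters 123 of 3459 (3.56%). Subtraction of the profile of other nuclei gave 283 higher and 575 lower genes of 4456 (6.35% and 12.9%). The secreted carriers had medians of −1.08 at a score of 20, −1.15 with 4 selection genes, −0.77 under a stricter filter, −0.74 without exclusions, −0.66 after subtraction and −0.68 over the whole cluster. The mitochondrially encoded genes had −1.14 at a score of 20, −0.53 under the stricter filter and −0.57 without exclusions.

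The PS19 share was 0.468% with 4 selection genes, 0.501% after thinning, 0.487% without *Lama1*, 0.526% without *Slc6a13* and 1.25% for the whole cluster. The PZKO share was 1.01% at a score of 20, 1.14% with 4 genes, 1.70% without exclusions, 1.05% after thinning, 1.09% without *Lama1*, 2.29% for the whole cluster, 1.09% without the *Hs6st3* sub-cluster and 1.06% without both sub-clusters. The interferon list had a median of 0.37 without the PS19 nucleus described above. This alternative, the whole cluster and the removal of sub-clusters were chosen after seeing the data.

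Some log2 ratios of single genes changed sign. At a score of 20 they were 1.85 (*Rgs7*), 0.15 (*Fam155a*), 0.017 (*Sorbs2*) and 0.028 (*Dach1*). With 4 selection genes they were 2.60 (*Rgs7*), 1.37 (*Fam155a*) and 1.42 (*Grip1*). Without the *Emcn* sub-cluster they were 3.18 (*Rgs7*), 1.64 (*Fam155a*) and 1.28 (*Grip1*), on few PS19 UMIs. Without both sub-clusters *Rgs7* had at least 0.79, as its 1 further PS19 UMI was then also left out and 3 UMIs were allowed for PS19. *Adarb2* had −0.31 and *Csmd3* −0.084 without the *Hs6st3* sub-cluster, and −0.43 and −0.21 without both. *Nr1h4* had 0.96 at a score of 20, 0.59 with 4 selection genes, 0.79 without the *Emcn* sub-cluster and 0.92 without both. *Nxph1* had −0.054 without exclusions and −0.78 over the whole cluster, where *Slc4a10* had −0.25 and *Adamts9* −0.027. No paired analysis was possible because there is 1 library per genotype, which also leaves no library to omit. At this depth 3 UMIs are 10.5 CPM in PS19 and 3.32 CPM in PZKO, and differences of genes near these levels could not be resolved.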

Other observations

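Genes enriched in VLMC give a view of the profile that the lists leave out. Of 506 genes over 4-fold higher in VLMC than in other nuclei of both libraries, 10 (1.98%) were over 2-fold higher in PZKO and 8 (1.58%) over 2-fold lower. A gene far lower in VLMC of 1 library could not enter this set, so these shares are not comparable with those over all genes. Their median log2 ratio was 0.02, with 265 above and 241 below 0. *Trpm3*, a cation channel gene, had 18480 CPM in PS19 and 28044 CPM in PZKO (0.60, 0.56 to 0.64), in 52 of 71 and 114 of 144 nuclei. Its ratio in other nuclei was −0.49. Those nuclei are a mixture of classes whose shares differed between the libraries, such as choroid-plexus-like nuclei (2.58% and 1.04%). *Trpm3* was not compared class by class, so its ratio in other nuclei does not show a change within a class. *Sdk1*, an adhesion molecule, had 656 and 1216 CPM (0.89, 0.67 to 1.12). *Egfr*, the epidermal growth factor receptor, had 227 and 438 CPM, and the secreted guidance genes *Sema3d* and *Sema3a* had 122 and 249 CPM and 310 and 530 CPM.

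Other enriched genes were lower in PZKO. *Vtn*, which encodes the adhesive protein vitronectin, had 345 and 144 CPM (−1.26, and −0.96 without the nucleus of each library that held most of it). *Ccr9*, a chemokine receptor gene, had 275 and 104 CPM (−1.41, and −1.14 without those nuclei). *Enpp1*, an ectoenzyme that makes pyrophosphate, had 289 and 153 CPM (−0.92), and *Pdgfra*, the platelet-derived growth factor receptor of fibroblasts, 352 and 215 CPM (−0.71).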
